A study of Mus musculus with 6 samples.

Results

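De novo lipogenesis, the building of fatty acids from acetyl-CoA, was followed in interscapular brown adipose tissue (iBAT) through the mRNAs of 10 of its enzymes and regulators: *Fasn*, *Acaca*, *Acacb*, *Acly*, *Scd1*, *Elovl6*, *Me1*, *Thrsp*, *Srebf1*, and *Mlxipl*. The genes were chosen by name, and every array probe whose RefSeq accession maps to 1 of them was taken, which gave 17 probes of the 35448 tested, for 10 of 19011 named genes. The samples were iBAT from 3 control and 3 *ob/ob* mice, all male, 16 weeks old, and of C57BL/6 background, with 1 Agilent single-color array per sample. *ob/ob* mice carry a mutated leptin gene in every tissue. Differences in iBAT may therefore include what the obesity of the whole animal brings with it, which was not tested. The genotype label of the other group reads only "control". The general animal methods of the study state that littermates were compared and that food and water were freely available, but its account of the array experiment repeats neither for these mice. Neither source says whether several mice were pooled for an array, so p values measure the spread between these samples only. Each value below is a log2 signal after quantile normalization between arrays, in which 1 unit is a 2-fold difference, and a log2 fold change is *ob/ob* minus control.

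Cytosolic citrate is cleaved to acetyl-CoA, acetyl-CoA carboxylase turns this into malonyl-CoA, and fatty acid synthase joins the units into palmitate with NADPH as the reductant. Elongases and desaturases then lengthen the product or place a double bond in it. Transcription of the pathway is driven mainly by SREBP-1c, which responds to insulin, and by ChREBP, which responds to glucose metabolites. Brown fat has high lipogenic capacity, and its synthesis and oxidation of fatty acids can run side by side during cold exposure. Malonyl-CoA also inhibits carnitine palmitoyltransferase 1, which ties the pathway to fatty acid oxidation.

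On the 6 arrays, 83.5% to 89.9% of spots lay well above background. Replicates were unlike each other: Spearman correlations over the tested probes ran from 0.488 to 0.967 within groups. Control 3 stood apart from the other controls and correlated with *ob/ob* 1 at 0.915 and with *ob/ob* 2 at 0.944, and *ob/ob* 3 stood apart from its group and correlated with control 1 at 0.858. Results that rest on control 3 and *ob/ob* 3 are therefore also given without them. The leptin probe, which can still report a transcript from the mutated gene, read 5.74, 4.57, and 5.30 in the controls and 6.68, 5.83, and 9.33 in *ob/ob*. Of 9 brown adipocyte markers, 7 were well above background on every array, including *Ucp1* at 8.93 or more, and so were 8 of 10 skeletal muscle markers, including *Myh4*, a fast myosin heavy chain, at 6.96 or more.

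The promoters of several of these genes hold CCAAT or GGGCGG, letters that many promoters share, and 4 stretches are shown. They are those of *Fasn* and *Thrsp*, which hold CCAAT more than once, and those of *Mlxipl*, which hold the only E-box and sterol response letters found in the set. The sequences are from RefSeq, assembly GRCm38.p6, written 5′ to 3′ on the strand of the gene, with searched motifs in capitals and positions counted back from the annotated start site. The *Fasn* stretch lies at chr11:120824582-120824657 on the minus strand, the *Thrsp* stretch at chr7:97417578-97417649 on the minus strand, and the *Mlxipl* stretches at chr5:135089697-135089817 and chr5:135106735-135106783 on the plus strand, before 2 annotated start sites.
Fasn: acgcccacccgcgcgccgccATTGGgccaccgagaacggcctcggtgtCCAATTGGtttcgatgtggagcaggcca
Thrsp: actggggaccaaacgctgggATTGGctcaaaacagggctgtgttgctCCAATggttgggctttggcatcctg
Mlxipl, upstream start: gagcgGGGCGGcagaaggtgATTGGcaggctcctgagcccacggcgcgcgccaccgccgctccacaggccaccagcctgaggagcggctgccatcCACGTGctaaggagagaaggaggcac
Mlxipl, downstream start: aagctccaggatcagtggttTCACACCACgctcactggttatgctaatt

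The search covered 250 bases before each start, on both strands, for CCAAT (the NF-Y box), CACGTG (an E-box, the core to which USF and ChREBP partners bind), TCACNCCAC (letters of a sterol response element), and GGGCGG (a GC box). It had 13 windows for 9 of the 10 genes. CCAAT occurred in 7 of the 13 windows, compared with 33.8% of 32851 windows in the annotation, and the genes with it were *Acacb*, *Fasn*, *Me1*, *Mlxipl*, *Srebf1*, and *Thrsp*. *Fasn* held it in inverted form at -90 and -59 and directly at -62, the last pair overlapping, *Thrsp* held it at -79 and -52, and the upstream *Mlxipl* start had it at -173. CACGTG was in 1 window, that of the upstream *Mlxipl* start at -98, and in 6.02% of all windows. TCACNCCAC was in 1 window, that of the downstream *Mlxipl* start at -136, and in 1.05% of all windows. GGGCGG was in 5 windows, those of *Acly*, *Me1*, *Mlxipl*, and *Srebf1*, compared with 32.7% of all windows. A match describes letters in a window and was not tied to binding in these samples.

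Across the 10 genes, mRNA levels were on average lower in *ob/ob* iBAT, led by both acetyl-CoA carboxylases and *Fasn*, with large spread inside each group. Of the 17 probes, 15 had a log2 fold change below 0, beside 56.4% of all probes tested. Groups did not overlap for 4 probes, all lower in *ob/ob* (*Acaca* probes 2 and 3, *Acacb* probe 2, and *Acly* probe 2), whereas 4.19% of all probes were of that kind; no probe was higher without overlap, beside 3.74% of all. At an unadjusted limma p under 0.05 and a 2-fold difference, 6 of 17 probes were lower, beside 1.35% of all probes, and 0 were higher, beside 1.69% of all. These 6 were the *Fasn* probe, *Acaca* probes 2 and 3, both *Acacb* probes, and *Acly* probe 2. Probes of 1 gene report on the same gene and are not separate evidence. Those of *Acly* are annotated to different RefSeq transcripts of the gene. After Benjamini-Hochberg adjustment over all 35448 probes, limma called 0 of the 17 (0% of all probes, with 3.51% of all at an unadjusted p under 0.05), and every one of the 17 had an adjusted p that rounds to 1. An exact permutation test with 3 arrays against 3 cannot go below p = 0.10. iBAT was measured as bulk tissue, so fewer cells of a type and less RNA per cell cannot be told apart.

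**Figure D1:**
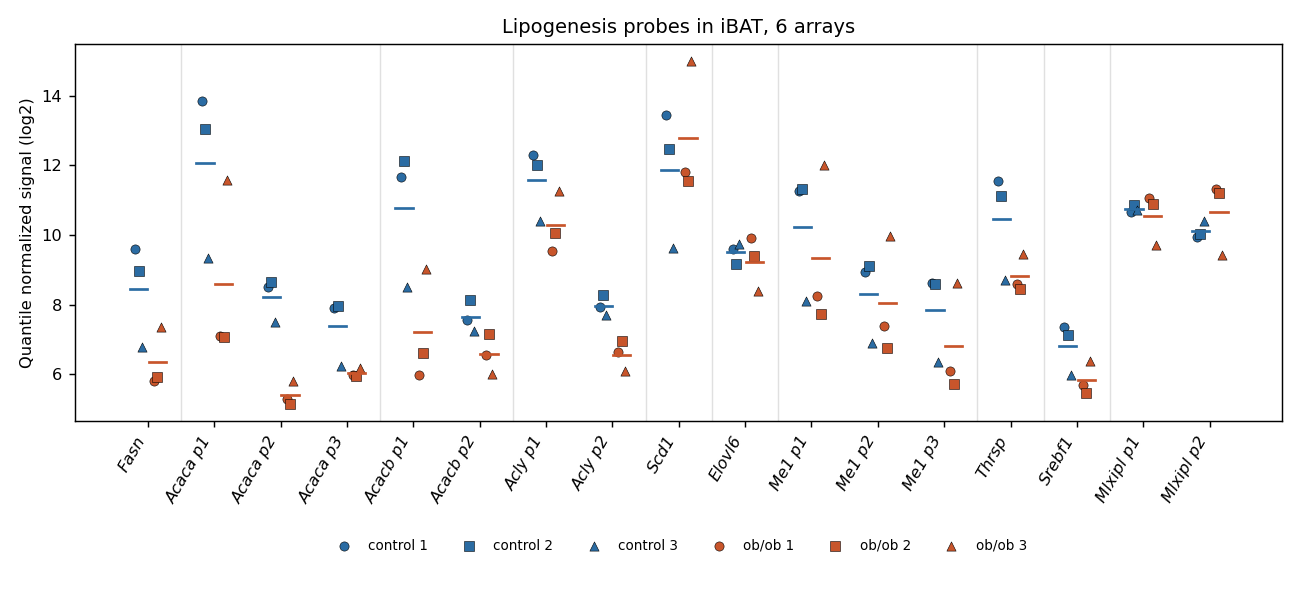
Quantile normalized log2 signal (vertical axis) of the 17 probes (horizontal axis; p1 is the brightest probe of a gene) on the 6 arrays, with controls in blue, *ob/ob* in orange, a marker shape per replicate, and a line at each group mean (n = 3). Control 1 and control 2 sit at the top for *Fasn*, *Acaca*, *Acacb*, *Acly*, *Thrsp*, and *Srebf1*, with control 3 and *ob/ob* 3 between the extremes on most of them.

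ATP citrate lyase, encoded by *Acly*, supplies the cytosolic acetyl-CoA from which the chain is built. Its brightest probe read 12.31, 12.03, and 10.41 in controls 1, 2, and 3 and 9.55, 10.07, and 11.27 in *ob/ob* 1, 2, and 3. *ob/ob* 3 lay above control 3, so the groups overlapped. The means were 11.58 ± 1.03 (SD, n = 3) and 10.29 ± 0.88 (SD, n = 3), a log2 fold change of -1.29 (SE 0.68, limma unadjusted p = 0.107). The dimmer probe of *Acly* read 7.92, 8.28, and 7.70 in controls and 6.64, 6.95, and 6.10 in *ob/ob*. Here every *ob/ob* array was below every control array. The log2 fold change of this probe was -1.40 (SE 0.37), or 2.65-fold lower (limma unadjusted p = 0.00839, exact permutation p = 0.10). *ob/ob* 3 was thus the highest *ob/ob* array on the bright *Acly* probe and the lowest on the dim one. The *Acly* probes are annotated to different RefSeq transcripts, and whether those transcripts differed was not tested.

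Acetyl-CoA carboxylase 1, encoded by *Acaca*, makes the malonyl-CoA used for synthesis, and it had 3 probes. The brightest read 13.84, 13.04, and 9.34 in controls and 7.10, 7.07, and 11.57 in *ob/ob*. This is a range of 6.77 log2 units over the arrays, the widest of the 17 probes, with *ob/ob* 3 above control 3. The means differed by -3.49 on the log2 scale (SE 1.65), 11.3-fold lower in *ob/ob*, with a 95% confidence interval from -7.47 to 0.48 (limma unadjusted p = 0.0757). Probe 2 read 8.50, 8.64, and 7.51 in controls and 5.28, 5.15, and 5.81 in *ob/ob*. All *ob/ob* arrays were below all controls, and *ob/ob* 3 was again the nearest to them. Its log2 fold change was -2.80 (SE 0.43), 6.96-fold lower, with a 95% confidence interval from -3.84 to -1.75, and it had the lowest unadjusted limma p of the 17 probes, 0.00052. Probe 3 read 7.90, 7.97, and 6.24 in controls and 5.96, 5.95, and 6.17 in *ob/ob*, also without overlap, although control 3 was close to the *ob/ob* arrays. Its log2 fold change was -1.34 (SE 0.54, limma unadjusted p = 0.0447).

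Acetyl-CoA carboxylase 2, encoded by *Acacb*, sits at the mitochondrial surface, where its malonyl-CoA acts mainly on fatty acid entry. Its brightest probe read 11.66, 12.13, and 8.51 in controls and 5.98, 6.60, and 9.04 in *ob/ob*. As for *Acaca*, *ob/ob* 3 was above control 3, and the other controls were far above the other *ob/ob* arrays. The means were 10.77 ± 1.97 (SD, n = 3) and 7.20 ± 1.62 (SD, n = 3), a log2 fold change of -3.56 (SE 1.20), 11.8-fold lower (limma unadjusted p = 0.0238). Probe 2 read 7.57, 8.14, and 7.24 in controls and 6.55, 7.16, and 6.00 in *ob/ob*, without overlap, although *ob/ob* 2 came close to control 3. Its log2 fold change was smaller, -1.08 (SE 0.44, limma unadjusted p = 0.0487).

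Fatty acid synthase, encoded by *Fasn*, carries out every step from malonyl-CoA to palmitate in 1 protein. Its probe read 9.59, 8.96, and 6.80 in controls and 5.80, 5.91, and 7.34 in *ob/ob*. Controls 1 and 2 were above all *ob/ob* arrays, and control 3 was below *ob/ob* 3. The means were 8.45 ± 1.47 (SD, n = 3) and 6.35 ± 0.86 (SD, n = 3), so that *Fasn* was 4.28-fold lower, with a log2 fold change of -2.10 (SE 0.83), a 95% confidence interval from -4.11 to -0.09, a limma unadjusted p of 0.0431, and an exact permutation p of 0.20.

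Malic enzyme 1, encoded by *Me1*, yields NADPH for the synthase. Its brightest probe read 11.26, 11.34, and 8.11 in controls and 8.23, 7.73, and 12.02 in *ob/ob*. *ob/ob* 3 was the highest of the 6 arrays and *ob/ob* 2 the lowest, so the *ob/ob* values spanned those of the controls. Control 3 was close to *ob/ob* 1 and 2. The log2 fold change was -0.91 (SE 1.40, limma unadjusted p = 0.54), and the other *Me1* probes gave -0.27 (SE 1.01) and -1.04 (SE 0.98). On all 3 *Me1* probes, *ob/ob* 3 was the highest array.

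Stearoyl-CoA desaturase 1, encoded by *Scd1*, places the double bond that turns stearate into oleate. It read 13.46, 12.48, and 9.63 in controls and 11.82, 11.56, and 15.00 in *ob/ob*. *Scd1* had both extremes in the arrays that stood apart, with control 3 the lowest of the 6 and *ob/ob* 3 the highest. Its log2 fold change was 0.94 (SE 1.30), with a 95% confidence interval from -2.20 to 4.07 (limma unadjusted p = 0.496). Of the 17 probes, *Scd1* was the only one on which control 3 lay below every *ob/ob* array, a pattern that 21.3% of all probes had.

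The elongase encoded by *Elovl6* adds the final carbon pair that makes stearate from palmitate. It read 9.60, 9.18, and 9.73 in controls and 9.91, 9.41, and 8.38 in *ob/ob*. The groups overlapped throughout, with *ob/ob* 3 the lowest array. The log2 fold change was -0.27 (SE 0.48, limma unadjusted p = 0.59), and its 95% confidence interval ran from -1.42 to 0.88.

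The regulators fell into different patterns. Thyroid hormone responsive protein, encoded by *Thrsp* and also called Spot 14, promotes lipogenesis, and it read 11.55, 11.11, and 8.70 in controls and 8.60, 8.44, and 9.47 in *ob/ob*. Controls 1 and 2 were highest, and control 3 lay among the *ob/ob* arrays. The log2 fold change was -1.62 (SE 0.80), 3.07-fold lower (limma unadjusted p = 0.088). *Srebf1*, which encodes SREBP-1, read 7.35, 7.13, and 5.99 in controls and 5.69, 5.46, and 6.37 in *ob/ob*. Its array order was that of *Fasn*, apart from *ob/ob* 1 and 2 changing places, at a smaller range, with a log2 fold change of -0.98 (SE 0.49, limma unadjusted p = 0.0891). Which of SREBP-1a and SREBP-1c the probe reads was not examined, and active SREBP-1 is made by cleavage of the protein, which mRNA does not report.

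*Mlxipl*, which encodes ChREBP, had 2 bright probes and little spread among controls. The brightest read 10.67, 10.86, and 10.72 in controls and 11.07, 10.90, and 9.70 in *ob/ob*. *ob/ob* 1 and 2 were above the controls and *ob/ob* 3 was below them. For this probe the log2 fold change was -0.19 (SE 0.45), with a 95% confidence interval from -1.28 to 0.89 (limma unadjusted p = 0.681). Probe 2 had the same order within *ob/ob*, at 11.32, 11.21, and 9.43, against 9.94, 10.04, and 10.40 in controls, with a log2 fold change of 0.53 (SE 0.58, limma unadjusted p = 0.392). The regulators *Srebf1* and *Mlxipl* therefore had different array orders, and the difference between them was not tested.

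**Figure D2:**
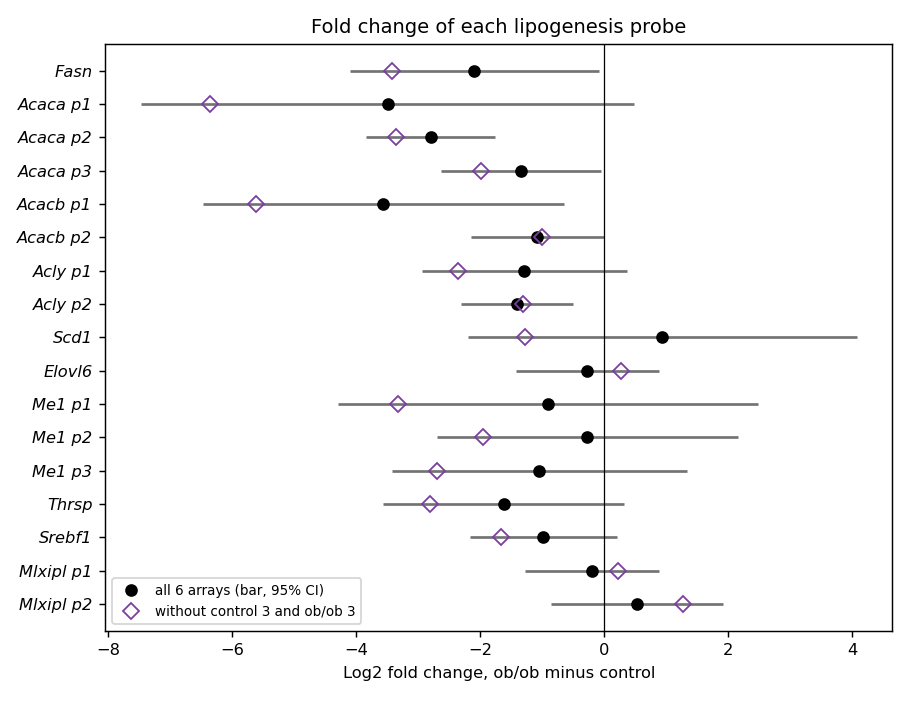
Log2 fold change, *ob/ob* minus control (horizontal axis), of each of the 17 probes (vertical axis), with filled circles and 95% confidence bars from limma on all 6 arrays and open diamonds from the fit without control 3 and *ob/ob* 3. The bars of *Acaca* probe 2 and *Acly* probe 2 lie well below 0, those of *Scd1* and *Me1* reach far on both sides, and the diamond of *Scd1* falls on the other side of 0 from its circle.

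Many of these differences changed in size when the arrays that stood apart were left out. Controls 1 and 2 were the highest pair of the 6 arrays on 10 of 17 probes, beside 7.82% of all probes tested, and the highest and lowest arrays were over 3 log2 units apart on 8 of 17, beside 20.2% of all. Without control 3 alone, 16 probes were lower (52.3% of all probes) and 10 were lower at an unadjusted p under 0.05 and 2-fold (3.3% of all). Without *ob/ob* 3 alone, 14 were lower (47.5% of all) and 7 were at that level (2.9% of all). Limma called 0 after adjustment in either fit. Without both, 14 of 17 probes were lower at an adjusted limma p under 0.05, beside 23% of all probes (43.2% of all were lower at any p, and 22.8% were higher at that threshold). The same 14 were at least 2-fold lower at an unadjusted p under 0.05, beside 19.2% of all. That fit compares 2 arrays with 2 that were kept for how they resembled each other, so its p values describe these 4 arrays. In it *Acaca* probe 1 had a log2 fold change of -6.36 (limma adjusted p = 1.28e-05), *Acacb* probe 1 of -5.61, *Fasn* of -3.42, *Me1* probe 1 of -3.32, *Thrsp* of -2.81, *Acly* probe 1 of -2.36, and *Srebf1* of -1.67. *Scd1* turned from 0.94 to -1.28 (limma adjusted p = 0.0149). *Elovl6* at 0.27 and *Mlxipl* probe 1 at 0.22 remained near 0 (limma adjusted p = 0.473 for each), whereas *Mlxipl* probe 2 was higher by 1.28 (limma adjusted p = 0.00219).

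Controls 1 and 3 and *ob/ob* 1 shared a recorded scan date, so this comparison has 1 *ob/ob* array. Among them, *ob/ob* 1 minus the mean of the controls was -2.39 for *Fasn*, -4.49 for *Acaca* probe 1, -2.72 for *Acaca* probe 2, and -4.11 for *Acacb* probe 1. The same difference was 0.27 for *Scd1*, 0.24 for *Elovl6*, and 0.37 for *Mlxipl* probe 1. It was -1.81 for *Acly* probe 1, -1.45 for *Me1* probe 1, -1.53 for *Thrsp*, -0.99 for *Srebf1*, and 1.15 for *Mlxipl* probe 2. Of the probes given, only *Elovl6* and *Mlxipl* probe 1 had a direction opposite to that of all 6 arrays. The arrays compared here are among those 6, so a match is partly built in and is no check on scan date.

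The rest of the pathway was read from 46 further genes, grouped by role, with the brightest tested probe for each. *Elovl3* was well above background on the control arrays alone, so it was tested only through the group in which it was high, and the counts of calls below leave it out. Of the 46, 29 were lower and 17 higher in *ob/ob*, with a median log2 fold change of -0.33 (-0.31 without *Elovl3*), compared with -1.14 for the 10 genes above and -0.09 for all genes tested, of which 57.2% were below 0. At an unadjusted limma p under 0.05 and a 2-fold difference, 3 of 45 were lower (1.5% of all genes) and 1 was higher (1.69% of all genes). Limma called none after adjustment, and 4 of 45 were at an unadjusted p under 0.05 (3.73% of all genes). Median log2 fold changes were -0.29 for acetyl-CoA and citrate supply (3 genes), -0.56 for NADPH supply (3 genes), -0.19 for elongation (10 genes), -0.40 for desaturation (5 genes), -0.49 for mitochondrial fatty acid synthesis (4 genes), -0.37 for SREBP processing (6 genes), -0.07 for other regulators (11 genes), and -0.46 for further targets of ChREBP and SREBP-1c (3 genes). The single gene for malonyl-CoA removal, *Mlycd*, had -0.99.

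*Elovl3*, an elongase of very long chain fatty acids that marks active brown fat, read 9.20, 9.35, and 5.48 in controls. It was not well above background on any *ob/ob* array, where it read 3.30, 3.92, and 3.29, so it was at least 15.8-fold lower, and no p is given for it. *Scd3*, a paralog of *Scd1*, read 11.68, 11.38, and 10.19 in controls and 9.76, 9.24, and 9.64 in *ob/ob*. Unlike *Scd1* it had no overlap between groups, with a log2 fold change of -1.54 (SE 0.48, limma unadjusted p = 0.0171). Probes of such paralogs may share signal, and their sequences were not examined. *Mcat*, the malonyl transferase of mitochondrial fatty acid synthesis, had a log2 fold change of -1.71 (limma unadjusted p = 0.0413), and *Pnpla3*, a lipid droplet protein and a target of both factors, had -1.82 (limma unadjusted p = 0.0427). Both had *ob/ob* 3 above control 3.

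*Usf2*, an E-box binding factor, was the one gene of the 45 that was higher at this level. It read 9.79, 9.14, and 12.81 in controls and 13.43, 13.33, and 12.60 in *ob/ob*, a log2 fold change of 2.54 (SE 0.97), 5.81-fold higher (limma unadjusted p = 0.0373). Controls 1 and 2 were the lowest arrays, and control 3 lay above *ob/ob* 3. Beyond *Elovl3* and *Scd3*, groups did not overlap for *Scap*, the escort of SREBP, with a log2 fold change of -0.43, and for the elongase *Elovl7*, with 0.68, which was well above background on only 1 control array. Without *Elovl3*, this made 2 of 45 lower without overlap and 1 of 45 higher, beside 4.22% and 3.78% of all genes. *Acss2*, which makes acetyl-CoA from acetate, had the second lowest log2 fold change of the 46, -2.56, with overlap (limma unadjusted p = 0.168). It read 10.28, 10.49, and 6.29 in controls and 5.29, 4.66, and 9.45 in *ob/ob*. As on the brightest *Acaca* probe, controls 1 and 2 were highest, *ob/ob* 1 and 2 were lowest, and *ob/ob* 3 was above control 3.

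**Figure D3:**
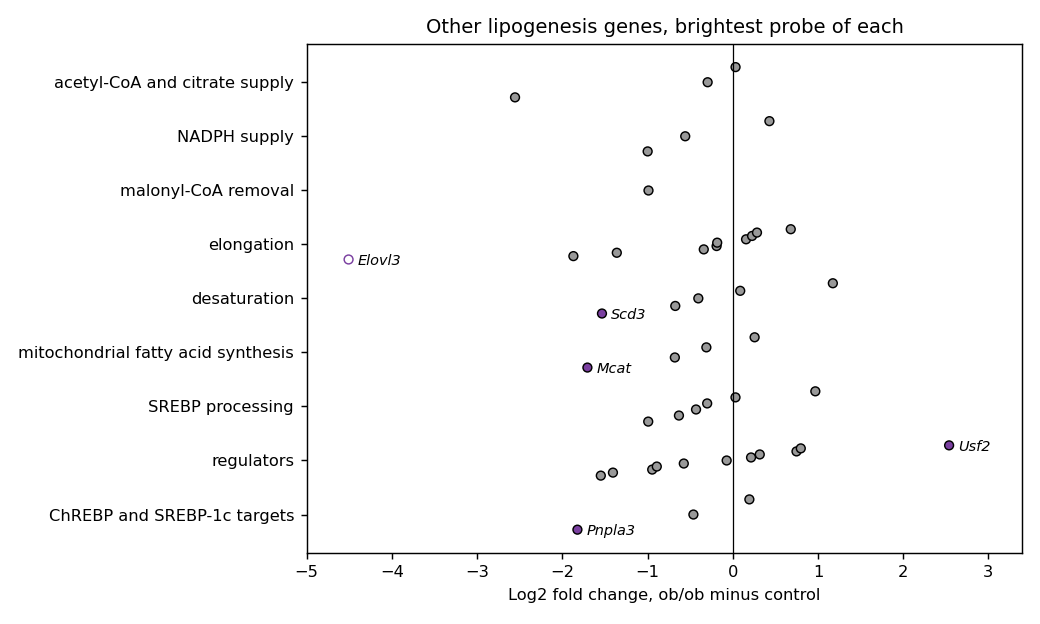
Log2 fold change, *ob/ob* minus control (horizontal axis), of the 46 further lipogenesis genes, brightest probe of each, in rows by role (points are spread within a row for legibility). Filled purple points met an unadjusted limma p under 0.05 with a 2-fold difference: *Scd3*, *Mcat*, and *Pnpla3* were lower and *Usf2* was higher. The open point of *Elovl3* is a fitted value, since no *ob/ob* array measured it above background.

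Without control 3 and *ob/ob* 3, the median of the 46 genes was -0.78 with 35 lower, and that of the 10 genes was -2.59 with 8 lower. The median for all genes tested was 0.07, with 8824 of 19011 lower. The order of the medians between the sets was thus the same with and without those arrays.

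Some lists of cell type markers moved with the lipogenesis genes. Of 9 brown adipocyte markers, 9 were lower in *ob/ob*, with a median log2 fold change of -2.32 (8 of 8 and -2.20 without *Elovl3*), and the log2 of their summed signal was 12.66 to 16.48 in controls and 12.04 to 13.60 in *ob/ob*. *Cidea*, *Cox8b*, and *Ucp1* were the 3 markers with the highest control means. On them, controls 1 and 2 were the highest arrays, as on *Fasn*. The next marker by control mean, *Cox7a1*, was lower by less, with a log2 fold change of -1.15 against -2.06 for *Ucp1*. Of the list, *Elovl3*, also 1 of the 46 genes above, was well above background on no *ob/ob* array and *Prdm16* on 1. Pan-adipocyte markers (*Fabp4*, *Cidec*, and *Adipoq* among them) divided evenly on all 6 arrays: 3 of 6 were lower, with a median of 0.01, and the log2 of their summed signal was 13.58 to 16.33 in controls and 14.61 to 16.64 in *ob/ob*. Their lowest array was control 3 and their highest *ob/ob* 3, as for *Scd1*.

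Of 10 skeletal muscle markers, 9 were lower, with a median of -1.26 and a log2 summed signal of 12.25 to 15.73 in controls and 9.90 to 16.79 in *ob/ob*. *Myh4* read 14.44, 14.96, and 11.16 in controls and 6.97, 6.96, and 14.25 in *ob/ob*. *Tnnc2* and *Myh1* had controls 1 and 2 at the top of the controls as well. Unlike on *Fasn*, the highest of the 6 arrays on both was *ob/ob* 3, at 14.83 for *Tnnc2* and 14.64 for *Myh1*. *Myh1* was not well above background on *ob/ob* 1 and 2. Of 5 endothelial markers, 4 were lower (median -1.17, log2 summed signal 12.66 to 13.27 in controls and 11.84 to 12.63 in *ob/ob*). Of 7 macrophage markers, 5 were higher (median 0.53). Medians were -0.32 for the white adipocyte and erythrocyte lists and -0.06 for the lymphocyte list. Without control 3 and *ob/ob* 3, 6 of 6 pan-adipocyte markers were lower, with a median of -1.44, and all 6 had an adjusted limma p under 0.05. Of all 19011 genes, 5127 were lower at that threshold in that fit, and 8824 were lower at any p. The arrays of that fit were kept for how they resembled each other, so its p values describe only those arrays. In that fit 9 of 9 brown adipocyte markers were lower (median -3.91), as were 9 of 10 skeletal muscle markers (-3.02) and 4 of 5 endothelial markers (-2.23), while the macrophage median was 0.26. The part of these cell types in the lipogenesis differences was not tested.

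**Figure D4:**
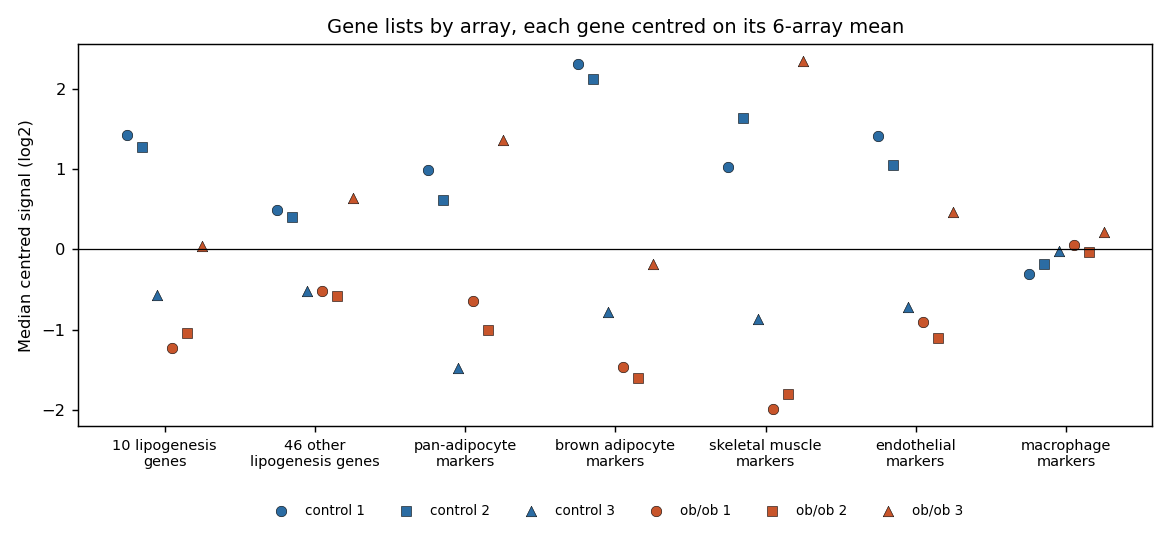
Median over the genes of a list of the log2 signal centred on each gene's mean over the 6 arrays (vertical axis), for the 10 lipogenesis genes, the 46 further genes, and 5 lists of cell type markers (horizontal axis), with a point per array. Controls 1 and 2 lie above 0 and control 3 and *ob/ob* 1 and 2 below 0 in every list except that of macrophages.

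The probes of 1 gene did not always agree across arrays. With each probe centred on its mean, the brightest minus the dimmest probe of *Acaca* was 2.31 in control 1 and 1.77 in *ob/ob* 3 but -2.49 and -2.51 in *ob/ob* 1 and 2. For *Acly* the same quantity was 1.49 in *ob/ob* 3 and -0.76 and -0.55 in *ob/ob* 1 and 2. *ob/ob* 3 was the array farthest from 0 for 2 of the 5 genes with more than 1 probe, *Acly* and *Me1*, and for 45.3% of the 4726 genes of that kind on the array. The dim probes of *Acaca*, *Acacb*, and *Acly* were the ones without overlap between groups, and the bright probes of the same genes were the ones with *ob/ob* 3 above control 3.

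The mean centred profile of the 10 genes was 1.55, 1.25, and -0.78 in controls and -1.20, -1.26, and 0.44 in *ob/ob*. Of 15874 other genes detected on all arrays, the closest to it by root mean square difference over the 6 arrays were *Il11ra1* (0.0895 log2 units), *Pik3r3* (0.0919), *Gcn1* (0.0927), *Mrpl55* (0.101), and *Chkb* (0.112). Their log2 fold changes lay between -1.27 and -1.38. None of these 5 belongs to the lists of lipogenesis genes.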

How the data were processed

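RNA of 6 iBAT samples had been extracted with TRIzol, amplified, labeled with Cy3, and hybridized to Agilent single-color mouse arrays. The authors deposited spot intensities from Feature Extraction (version 11.0.1.1), background subtracted within each array and not normalized between arrays, and a table of log2 values quantile normalized in GeneSpring, which served as an alternative. The comparison used the intensity values: log2 was taken of each spot, replicate spots were averaged, and the arrays were then quantile normalized. Of 39429 probes, 104 with outlier flags were left out, and 35448 detected on at least 3 of 6 arrays were tested with limma (version 3.58.1, R 4.3.3), with Benjamini-Hochberg adjustment over all of them. No spot was saturated. No counts exist, and the number of arrays limits the precision. Where a gene had no *ob/ob* array above background, its fold is a lower bound, set from the lowest signal above background on each array.

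Groups and replicate numbers came from the labels. Of 28623 RefSeq probes, 94.9% were named from the RefSeq annotation of GRCm38.p6, used for names only, since the array design cites another build. Tables and figures were made with Python (3.11.15), pandas (2.3.3), numpy (2.4.6), scipy (1.17.1), and matplotlib (3.10.9). The fit was tested on simulated data with noise drawn independently for each probe and array. That simulation had no array that deviated over many probes together, as control 3 and *ob/ob* 3 did.

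The genes and lists were chosen with earlier results of these data known. Named are all 10 genes, *Lep*, further pathway genes with an unadjusted p under 0.05 or with groups that did not overlap, genes of counts of 5 or fewer, and the 5 closest profiles. For the brown adipocyte, pan-adipocyte, and skeletal muscle lists, the 3 markers with the highest control means are named as well. That choice favors markers that are high in controls. *Acss2* and the comparison of probes within a gene were chosen after their values were seen. The 18 alternatives were other scalings, background correction, filters, probe summaries, tests, array weights, blocks by scan date and by replicate number, and leaving out arrays.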

Additional observations from a re-analysis of the deposited data

How the results depend on the processing

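With all alternatives, 7 to 10 of the 10 genes were lower in *ob/ob*, and *Fasn*, *Acaca*, *Acacb*, *Acly*, *Me1*, *Thrsp*, and *Srebf1* (brightest probes) kept their direction in all 18. The median log2 fold change of the 10 genes, -1.14, was -2.59 without control 3 and *ob/ob* 3, -2.49 with array weights, and -0.82 to -1.92 when 1 array was left out. The array weights were 1256 for control 2 and 42.9 for *ob/ob* 1, and at most 0.193 for any other array. That fit is in effect 1 array against 1, so only its effect sizes are given. The median of the 46 further genes ranged from -0.78 to -0.17. Apart from array weights, genes past an adjusted p under 0.05 were 8 without control 3 and *ob/ob* 3 (49.3% of all genes, either direction) and 0 in the other settings. Genes at an unadjusted p under 0.05 and 2-fold were 2 in the reported fit (*Fasn* and *Acacb*, beside 3.19% of all genes, either direction). They were 1 with normexp (1.49%), 0 with the methods' t-test run on the same values (1.81%), 8 without control 3 and *ob/ob* 3 (39.8%), and 4 with the mean of a gene's probes (2.77%). They were 0 to 6 when 1 array was left out: 6 without control 3 (9.34%), 5 without *ob/ob* 3 (8.16%), and 0 without any of the others (0.826% to 2.09%). The cause was not tested.

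Direction turned for 3 genes. *Scd1* was -0.66 with array weights, -1.28 without both arrays, and -0.17 to 1.74 with 1 left out. *Elovl6* was 0.73 with array weights, 0.24 with the scan as a block, 0.27 without both, and -0.61 to 0.15 with 1 left out. *Mlxipl* was 0.21, 0.37, and 0.22 in those settings, 0.17 with the mean of its probes, and -0.45 to 0.24 with 1 left out. Over all probes the median was -0.07, and -0.32 when arrays were scaled to the 75th percentile; the 10 genes then had -1.18, with 9 lower.

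Replicate numbers did not pair the samples: deviations from the group means of same-numbered arrays correlated at -0.78, -0.66, and -0.85. With the replicate block, 0 of the 10 genes were at an unadjusted p under 0.05 and 2-fold (1.08% of all genes). No control array correlated best with the *ob/ob* array of its own number.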
